A study of Mus musculus with 6 samples.

Results

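The genes Fgf4, Fgf5, Otx2, Lef1, Zic2, Dusp6, Spry2, Spry4, Etv4 and Etv5 mark formative pluripotency and the feedback arm of FGF-ERK signalling in mouse embryonic stem (ES) cells. Members were the introns that lie inside the RefSeq span of 1 of these 10 genes and on its strand, 55 of 219945 listed introns. PolyA-selected RNA was compared between 3 wild-type and 3 ZRSR2 knockout libraries of the ES cell line VGB6. ZRSR2 is a protein of the minor spliceosome that helps to recognise 3′ splice sites. The labels name no allele, clone, culture medium, age or treatment, and do not tell separate cultures from repeat libraries, and the spread behind each p-value may therefore be technical. Titles number the libraries of each group P2, P3 and P5, and what P stands for is not stated. The numbers 2, 3 and 5 are used here as replicate numbers.

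Fibroblast growth factor 4 (FGF4) is secreted by ES cells themselves and signals through FGF receptors, RAS and the kinase ERK. ERK moves ES cells out of the naive state towards the formative state, in which they become able to respond to signals for the germ layers. It also turns on its own brakes, which include the phosphatase DUSP6 and the Sprouty proteins, together with the ETS transcription factors ETV4 and ETV5. These feedback genes are therefore widely used as a readout of ERK activity, and Fgf5, Otx2, Lef1 and Zic2 as genes of the step after the naive state.

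Level is given in CPM, the spliced reads of a gene scaled to the library total over genes with TMM factors. The unspliced share is the deposited MSI, which equals the boundary reads of an intron over the boundary reads plus double the spliced reads, in percent. Summed over all listed introns, libraries held between 19801687 and 63623214 spliced reads, with wild-type replicate 2 the shallowest. These totals and the level of a gene add the counts of its listed introns, so a read can enter more than once. Of the members, Fgf5, Lef1, Dusp6 and Etv5 hold a listed intron that spans another. Zrsr2 itself had 660, 2190 and 2129 spliced reads in wild-type replicates 2, 3 and 5, and 33, 12 and 0 in the knockout ones (log2 change −6.70, edgeR adjusted p = 0.0218). Markers that define ES cells were present in every library, with 8 of the 9 listed genes measured and a summed level of 2030 to 2330 CPM for wild type and 2141 to 2383 CPM in the knockout. Of these 8 genes 0 passed in edgeR, and 4 had an unadjusted p under 0.05, against 9.97% of all genes tested. The log2 change was above 0 in 5 and below 0 in 3, and above 0 in 49.1% of all genes tested. Pou5f1, a core pluripotency factor gene, was at 470 ± 127 CPM for wild type, against 649 ± 50.7 CPM in cells lacking ZRSR2, and Dppa5a, an RNA-binding protein gene of ES cells, at 659 ± 30.9 and 670 ± 112 CPM (SD, n = 3 each). Of the 4, Pou5f1 (log2 change 0.47) and Lin28a (0.35) were higher in the knockout and Tdgf1 (−0.32) and Nanog (−0.58) lower, the last 3 named after their values were seen. The groups were apart in Pou5f1 and Tdgf1, against 15.4% of all genes tested.

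The results below turn on the feedback genes, which ETS factors downstream of ERK are known to bind. The 250 bases before a RefSeq start site (GRCm38.p6, the assembly that mm10 names) are therefore shown for 1 gene of each kind, a phosphatase, a Sprouty and an ETS factor. Capitals mark the letters GGAA on either strand, the core that ETS factors bind.
Dusp6, chr10:99262981-99263230, plus strand: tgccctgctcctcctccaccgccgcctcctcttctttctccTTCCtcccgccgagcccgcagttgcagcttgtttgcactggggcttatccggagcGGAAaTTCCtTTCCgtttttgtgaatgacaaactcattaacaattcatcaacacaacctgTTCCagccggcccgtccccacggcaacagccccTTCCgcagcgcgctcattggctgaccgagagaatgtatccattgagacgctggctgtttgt
Spry2, chr14:105896820-105897069, minus strand: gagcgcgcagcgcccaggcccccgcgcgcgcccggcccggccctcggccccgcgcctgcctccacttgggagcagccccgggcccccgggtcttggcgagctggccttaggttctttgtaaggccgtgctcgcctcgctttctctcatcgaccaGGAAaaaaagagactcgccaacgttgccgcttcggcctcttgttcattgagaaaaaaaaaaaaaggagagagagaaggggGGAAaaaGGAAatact
Etv5, chr16:22439571-22439820, minus strand: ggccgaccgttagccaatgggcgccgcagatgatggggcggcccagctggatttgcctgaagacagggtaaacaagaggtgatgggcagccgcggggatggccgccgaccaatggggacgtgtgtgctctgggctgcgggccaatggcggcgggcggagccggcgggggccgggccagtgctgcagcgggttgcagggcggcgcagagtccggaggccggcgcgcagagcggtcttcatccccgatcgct
GGAA occurred 6 times before Dusp6, 3 times before Spry2 and 0 times before this Etv5 start, the outermost of the 2 in the table, while it occurred 4 times before the inner one. Of 32851 such windows of all genes, 93.4% held it, with a median of 3 matches, so most promoters share it. The longer ETS letters CCGGAA, which contain GGAA, were in none of these 3 windows and in 12.0% of all windows. The letters CTTTGA, the core bound by TCF and LEF factors, were also in none of the 3 and in 13.8% of all. These matches describe letters and are not sites.

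For none of the 10 genes did the level pass the test of a difference between wild type and knockout. In edgeR 0 of 10 passed an adjusted p of 0.05, against 0.0177% of all 16957 genes tested (3 genes), and DESeq2 also called 0 of 10, against 1.47% of the 15086 genes to which it gave an adjusted p. At an unadjusted p under 0.05 there was 1 member, Lef1, lower in the knockout, against 9.97% of all genes in either direction and 5.97% lower. Groups did not overlap in 1 member, Otx2, against 15.4% of all genes. Every knockout library was lower in Otx2 alone, against 8.07% of all genes, and every one was higher in 0 members, against 7.30%. The log2 change was above 0 in 8 of 10 members, against 49.1% of all genes, with a median of 0.23 against −0.0064 for all genes tested. All 10 passed the filter on low counts, Fgf5 at a level near 1 CPM or below. In bulk RNA, fewer cells that express a gene and less RNA per cell cannot be told apart.

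**Figure D1:**
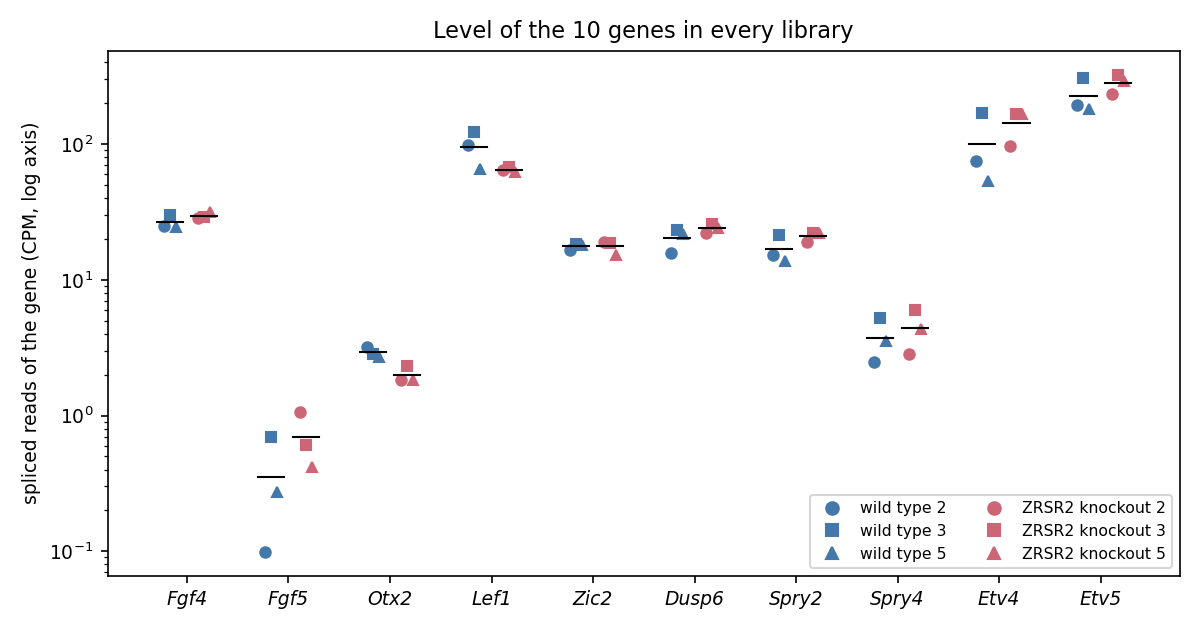
Level of each gene in CPM (log axis) in the 6 libraries, with the symbol giving the replicate number, the colour the group and the black line the group mean. The groups are apart in Otx2 alone, and wild-type replicate 3 (blue square) lies among or above the knockout libraries in Etv4, Etv5 and Spry2.

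The ligand gene Fgf4 (chromosome 7, 144861386 to 144865245, plus strand, 2 introns) was at 24.7, 30.2 and 24.5 CPM (wild-type replicates 2, 3 and 5), against 28.3, 28.8 and 31.7 CPM for the knockout replicates in the same order. The groups overlapped, with wild-type replicate 3 above knockout replicates 2 and 3 (log2 change 0.16, SE 0.13, edgeR adjusted p = 0.650). Fgf4 was among the steadiest members, with 1.29 times between the highest and the lowest library.

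Fgf5 (chromosome 5, 98254184 to 98277033, plus strand), which encodes a ligand that ES cells start to make after leaving the naive state, was almost silent. Its 3 listed introns held 2, 38 and 18 spliced reads for wild type, against 65, 19 and 15 for the knockout. These are 0.0991, 0.692 and 0.274 CPM for wild type and 1.07, 0.608 and 0.417 CPM in the knockout. The highest and the lowest library differed 10.8 times, and the log2 change of 0.92 came with an SE of 0.69 (edgeR adjusted p = 0.629). Without wild-type replicate 3 it was 1.79, and over the fits that each left out 1 library it was 0.46 to 1.79, so at this depth no difference was detectable.

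Otx2 (chromosome 14, 48656781 to 48667644, minus strand), a homeobox factor of the formative state, was the member whose groups were apart. It was at 3.22, 2.86 and 2.68 CPM in the wild-type libraries, against 1.83, 2.33 and 1.84 CPM in the knockout libraries, so each knockout library lay below each wild-type one. Its fitted log2 change came to −0.54 (SE 0.25, edgeR adjusted p = 0.498), which did not pass. Its counts were small, from 65 to 176 spliced reads in a library. All 4 of its introns had a lower mean in the knockout, and at the most-read intron alone the log2 change was −0.36.

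Lef1 (chromosome 3, 131110297 to 131224357, plus strand) encodes a partner of β-catenin in WNT signalling. It was at 98.7, 123 and 65.0 CPM in the wild-type libraries, against 64.1, 67.7 and 62.4 CPM in the knockout libraries. The knockout libraries were alike, while the wild-type ones spread 1.90 times, and wild-type replicate 5 fell inside the knockout range. Its fitted log2 change came to −0.56 (SE 0.21, unadjusted p = 0.0256, edgeR adjusted p = 0.485). It was −0.34 without wild-type replicate 3 and −0.78 without wild-type replicate 5, and it did not pass in any of the 6 fits without 1 library.

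The lower mean of Lef1 was seen along the whole gene. All 13 listed introns had a lower mean in the knockout, with log2 ratios of the means between −0.84 and −0.33, and in 5 of them every knockout library was below every wild-type one, against 8.79% of all introns tested. Of these 5, 1 spans another and both share reads. The first listed intron (131112821 to 131113855) was at 7.83, 7.85 and 4.69 CPM in the wild-type libraries, against 3.75, 3.71 and 3.95 CPM in the knockout libraries. The fourth (131184776 to 131189334), at the other end of that range, was at 8.03, 13.4 and 5.82 CPM and at 6.90, 7.39 and 7.32 CPM. Introns of a gene share their reads and libraries and are not replicates.

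Zic2 (chromosome 14, 122475384 to 122480328, plus strand), a zinc finger factor of formative cells, had nearly equal means. It was at 16.4, 18.4 and 18.0 CPM in the wild-type libraries, against 19.0, 18.8 and 15.1 CPM in the knockout libraries. Its fitted log2 change came to 0.00066 (SE 0.14, edgeR adjusted p = 0.999), with the knockout libraries on both sides of the wild-type ones.

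**Figure D2:**
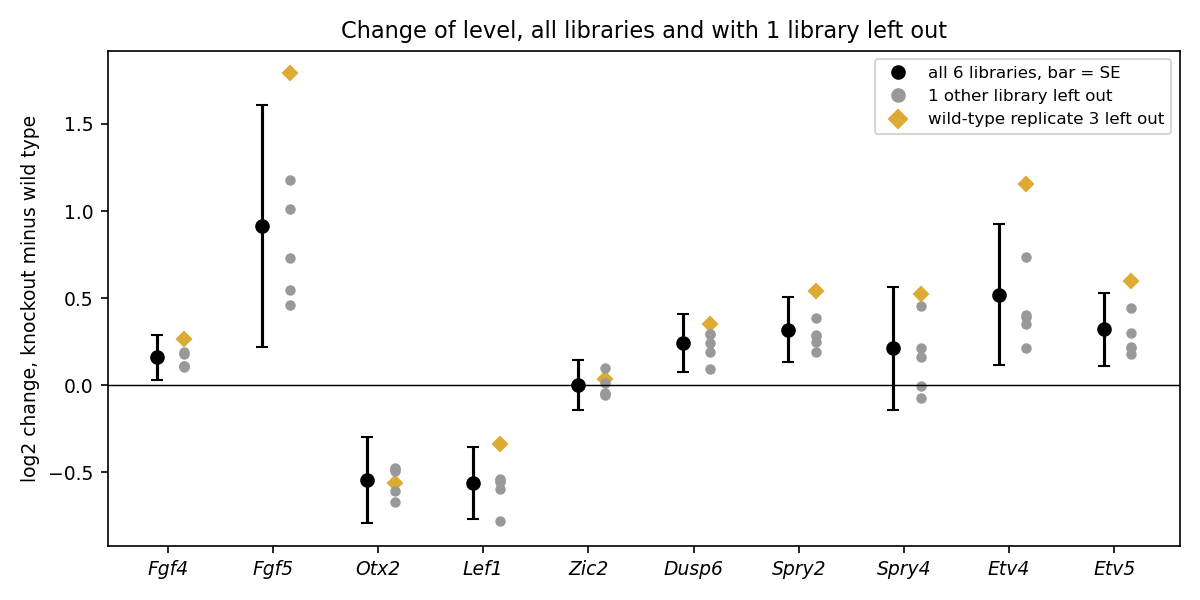
Log2 change in level, knockout minus wild type, of the 10 genes. Black points are the fit of all 6 libraries with its SE as bars, grey points are fits without 1 library, and the yellow diamonds are fits without wild-type replicate 3, which move Etv4 from 0.52 to 1.16.

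The 5 feedback genes all had a higher mean in the knockout, while 49.1% of all genes tested had a log2 change above 0. In all 5 the groups overlapped, and they did not overlap in 15.4% of all genes. The median log2 change of the 5 was 0.32 (range 0.21 to 0.52). In edgeR 0 of 5 passed, against 0.0177% of all genes, and 0 were past an unadjusted p of 0.05, against 9.97%. Etv4 (chromosome 11, 101769747 to 101785310, minus strand) varied most. It was at 75.6, 170 and 53.3 CPM in the wild-type libraries, against 96.9, 167 and 166 CPM in the knockout libraries (log2 change 0.52, SE 0.40, edgeR adjusted p = 0.639). Its highest library was wild-type replicate 3 and its lowest wild-type replicate 5, so the 3.20 times between them lay within the wild-type group.

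Etv5 (chromosome 16, 22381313 to 22439570, minus strand), the paralog of Etv4, was at 194, 306 and 181 CPM in the wild-type libraries, against 233, 325 and 292 CPM in the knockout libraries. Again wild-type replicate 3 stood with the knockout libraries and the other wild-type libraries lay below all of them (log2 change 0.32, SE 0.21, edgeR adjusted p = 0.581).

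Spry2 (chromosome 14, 105891947 to 105896819, minus strand) and Spry4 (chromosome 18, 38586247 to 38601347, minus strand) encode Sprouty inhibitors of receptor tyrosine kinase signalling, and each was measured at 1 intron. Spry2 was at 15.2, 21.6 and 13.8 CPM in the wild-type libraries, against 19.1, 22.0 and 22.0 CPM in the knockout libraries (log2 change 0.32, SE 0.19, edgeR adjusted p = 0.549). Spry4 was at 2.48, 5.21 and 3.54 CPM in the wild-type libraries, against 2.83, 5.98 and 4.37 CPM in the knockout libraries (log2 change 0.21, SE 0.35, edgeR adjusted p = 0.837). In Spry4 the groups cover almost the same range, and its log2 change lay below 0 when wild-type replicate 2 (−0.0019) or knockout replicate 3 (−0.072) was left out.

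Dusp6 (chromosome 10, 99263231 to 99267489, plus strand), which encodes a phosphatase that removes the activating phosphates from ERK, was at 15.7, 23.2 and 21.7 CPM in wild type. In the knockout it was at 22.1, 25.7 and 24.0 CPM (log2 change 0.24, SE 0.17, edgeR adjusted p = 0.598). Only wild-type replicate 2 lay clearly lower, and without it the log2 change was 0.091.

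The feedback genes shared their highest wild-type and lowest knockout library, though not the whole order. Wild-type replicate 3 was the highest wild-type library in all 5 of them and in 9 of the 10 members, against 35.5% of all genes tested. Knockout replicate 2 was the lowest knockout library in all 5, against 35.4% of all genes. By the root mean square distance between log2 CPM centred on each gene's mean over the 6 libraries, the nearest member to Etv5 was Spry2 (0.092), while the nearest to Etv4 was Etv5 (0.33). Dusp6 was nearest to Fgf4 (0.165), and Otx2 was nearest to Lef1 (0.255).

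Without wild-type replicate 3, the knockout libraries were all above the remaining wild-type ones in 4 of the 5 feedback genes (Etv4, Etv5, Spry2 and Dusp6) and in 6 of the 10 members (these with Fgf4 and Fgf5), against 19.6% of all genes. This library was singled out after its values were seen. It was the highest wild-type library in 9 of the 10 members, so leaving it out favours such counts. The log2 changes were then 1.16 for Etv4 (edgeR adjusted p = 0.101), 0.60 for Etv5 (0.105), 0.54 for Spry2 (0.120) and 0.53 for Spry4 (0.461). Without wild-type replicate 5 in its place they were 0.21, 0.18, 0.19 and 0.16. Every knockout library was higher in 0 of 10 members without wild-type replicate 2 or 5 or knockout replicate 3. It was so in 2 members without knockout replicate 2 and in 1 without knockout replicate 5. The shares of all genes lay between 9.88% and 14.7% with these libraries left out.

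Outside the members, the genes whose profile over the 6 libraries lay nearest to the mean profile of the 10 were Asb6, Tfap4 and Ddc (distances 0.056, 0.062 and 0.062 among 8487 genes). Asb6 was at 22.1, 32.3 and 21.9 CPM in the wild-type libraries, against 27.0, 32.5 and 30.0 CPM in the knockout libraries. It had the library order of Etv5, with wild-type replicate 3 among the knockout libraries. Tfap4 was at 36.6, 57.0 and 35.1 CPM in the wild-type libraries, against 46.4, 58.7 and 49.0 CPM in the knockout libraries.

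Levels can be compared between genes only per intron, since a gene with more introns collects more reads. The divisor counts every listed intron, including those that span an exon, so the order below depends in part on the listing. In Dusp6 such an intron held 101 spliced reads over all libraries, against 3239 and 2680 at the others, which lowers its value per intron. Per listed intron and over the 6 libraries, Spry2 was at 18.9 ± 3.65 CPM and Etv5 at 18.2 ± 4.36 CPM (SD, n = 6), which does not separate them. Fgf4 followed at 14.0 ± 1.45 CPM, Etv4 at 10.1 ± 4.38 CPM, Zic2 at 8.82 ± 0.771 CPM, Dusp6 at 7.35 ± 1.15 CPM and Lef1 at 6.17 ± 1.93 CPM. Spry4 was at 4.07 ± 1.37 CPM, Otx2 at 0.615 ± 0.141 CPM and Fgf5 at 0.176 ± 0.114 CPM. Neighbours from Spry2 down to Spry4 differed by less than the sum of their SDs, and the formative genes Otx2 and Fgf5 lay below all others in both groups.

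Within the long genes, spliced reads were unequal between introns. In Etv5 the ninth listed intron from the 5′ end (22401932 to 22411632) was at 33.7, 57.4 and 30.6 CPM in the wild-type libraries, against 45.2, 62.0 and 53.3 CPM in the knockout libraries. The next intron upstream (22411921 to 22412844) was at 9.41, 15.3 and 7.73 CPM and at 11.2, 13.7 and 10.6 CPM. Every library held at least 3 times as many reads at the former, in both groups.

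**Figure D3:**
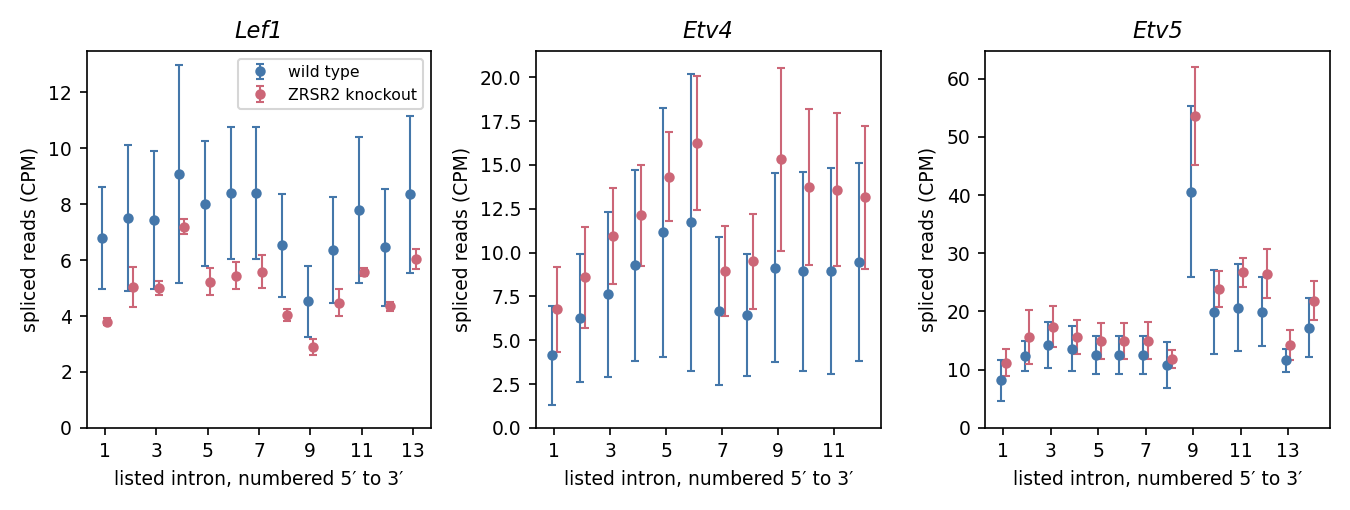
Spliced reads in CPM at each listed intron of Lef1, Etv4 and Etv5, numbered 5′ to 3′, as group means with SD bars (n = 3 each). Knockout means lie below wild-type means at all 13 Lef1 introns and above them at all Etv4 and Etv5 introns, with overlapping bars at most of these.

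In the other gene lists of the pathway, 0 genes passed the test in level. For the counts at an unadjusted p under 0.05 in these and the later lists, the share of all genes tested was 9.97%. Of 11 listed FGF ligands, receptors and adaptors, 9 were tested, 0 passed in edgeR (2 had an unadjusted p under 0.05), and the median log2 change was −0.19. Fgfr1, which encodes a receptor for FGF4, was at 155, 139 and 150 CPM in the wild-type libraries, against 146, 141 and 136 CPM in the knockout libraries (log2 change −0.07, SE 0.09). The adaptor gene Frs2 was at 19.5 ± 1.88 and 17.4 ± 2.36 CPM. Of 19 genes of the RAS-ERK relay 0 passed (0 at an unadjusted p under 0.05), with a median of −0.02. Map2k2, which encodes a kinase that activates ERK, was at 202 ± 8.77 and 214 ± 31.6 CPM (SD, n = 3 each).

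Of 15 tested other ERK feedback and target genes, 0 passed (2 at an unadjusted p under 0.05), with a median log2 change of −0.0064, 7 above and 8 below 0. The ERK inhibitor gene Spred1 was at 45.1 ± 6.08 and 52.2 ± 16.6 CPM and the ERK phosphatase gene Dusp9 at 42.4 ± 2.01 and 41.5 ± 2.81 CPM. The 2 genes past the unadjusted p, named after their values were seen, went opposite ways. Dusp5, a nuclear ERK phosphatase gene, was at 5.90, 10.8 and 7.62 CPM in the wild-type libraries, against 12.0, 12.2 and 11.3 CPM in the knockout libraries (log2 change 0.54, SE 0.23). Il17rd, whose product dampens FGF signalling, was at 15.7, 18.7 and 27.5 CPM in the wild-type libraries, against 9.88, 15.6 and 13.6 CPM in the knockout libraries (log2 change −0.67, SE 0.25). In both genes the groups were apart, against 15.4% of all genes tested, and neither passed (edgeR adjusted p = 0.498 and 0.485).

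Of 13 tested other formative and primed genes 0 passed in edgeR (2 at an unadjusted p under 0.05). In 11 the log2 change was above 0, against 49.1% of all genes tested, and the median was 0.25. Wild-type replicate 3 was the highest wild-type library in 9 of the 13, against 35.5% of all genes tested. Without it every knockout library was higher in 7 of the 13, against 19.6%, and without wild-type replicate 2 or 5 in 0. Dnmt3l, a cofactor of the DNA methyltransferases, was at 757, 1240 and 422 CPM in the wild-type libraries, against 1278, 1295 and 1173 CPM in the knockout libraries (log2 change 0.63, SE 0.32). Utf1, a chromatin protein gene of pluripotent cells, was at 64.6, 130 and 62.5 CPM in the wild-type libraries, against 127, 128 and 127 CPM in the knockout libraries (log2 change 0.57, SE 0.26). In both, wild-type replicate 3 lay inside or beside the knockout range and the other wild-type libraries lay below it, as in Etv4 and Etv5. Of 15 naive genes 0 passed (3 at an unadjusted p under 0.05), with a median of −0.20. Nanog was at 88.2, 62.2 and 131 CPM in the wild-type libraries, against 66.5, 53.6 and 67.4 CPM in the knockout libraries, so it was lowest among wild-type libraries in replicate 3 and highest in replicate 5. Fbxo15, another naive gene, was at 179 ± 21.4 and 183 ± 24.4 CPM.

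Of 8 tested genes among the TCF partners of Lef1 and WNT targets 0 passed (1 at an unadjusted p under 0.05), with a median of −0.22. That gene was Tcf7, a relative of Lef1 named after its values were seen, at 76.5, 78.1 and 84.3 CPM in the wild-type libraries, against 64.6, 68.3 and 65.3 CPM in the knockout libraries (log2 change −0.27, SE 0.09, edgeR adjusted p = 0.485). Ctnnb1, the gene of β-catenin, was at 554 ± 38.3 and 500 ± 40.6 CPM, and Tcf7l1, a repressor of WNT targets in ES cells, at 111 ± 11.2 and 118 ± 14.8 CPM.

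Genes listed as markers of other cell types were read in both groups, at unequal levels within a list. The 12 fibroblast or feeder genes summed to 421, 223 and 116 CPM for wild type and to 574, 355 and 70.4 CPM in the knockout, none at 0 in all libraries, with a median log2 change of 0.41 over 11 tested genes. This sum was highest in replicate 2 and lowest in replicate 5 of each group. The summed level of primitive endoderm markers was 279 to 313 CPM for wild type and 264 to 363 CPM in the knockout (median −0.17), and that of trophoblast markers 121 to 206 and 101 to 289 CPM (median 0.73). As wild-type and knockout means, Lamb1 was at 155 and 184 CPM and Col4a1 at 95.4 and 84.8 CPM. Gata4 was at 1.97 and 0.965 CPM and Gata6 at 0.842 and 0.315 CPM. Among trophoblast markers, Tfap2c was at 98.5 and 70.6 CPM, Krt8 at 37.7 and 67.4 CPM and Cdx2 at 0.396 and 0.379 CPM. In these 2 lists, 2 of 9 and 4 of 8 genes were below 1 CPM in all libraries. Gastrulation and neural markers summed to 24.6 to 30.1 and 24.0 to 31.0 CPM (median 0.03), with 6 of 10 below 1 CPM in all libraries. In each of these lists 0 genes passed in edgeR. At an unadjusted p under 0.05 in edgeR there were 0 of 11 fibroblast or feeder and 2 of 7 primitive endoderm genes. Trophoblast genes had 1 of 7 and gastrulation and neural genes 1 of 5, against 9.97% of all genes tested. In the same order of lists, groups were apart in 0, 2, 2 and 1 genes, against 15.4% of all genes. The part of these markers in the levels of the members was not tested.

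The unspliced share of the members did not pass the test either. Fgf5 had too few reads, and of the other 9 genes 0 passed in edgeR (0 at an unadjusted p under 0.05), against 0.0457% and 4.38% of 13138 genes tested. By limma 0 members passed. Groups did not overlap in 1 member, Zic2, against 8.84% of all genes. Zic2 was lower in every knockout library, as were 4.83% of all genes, and 0 members were higher in every one, against 4.02%. The median log2 odds, which compares unspliced with spliced reads between knockout and wild type, was −0.12 over the members and −0.0049 over all genes.

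**Figure D4:**
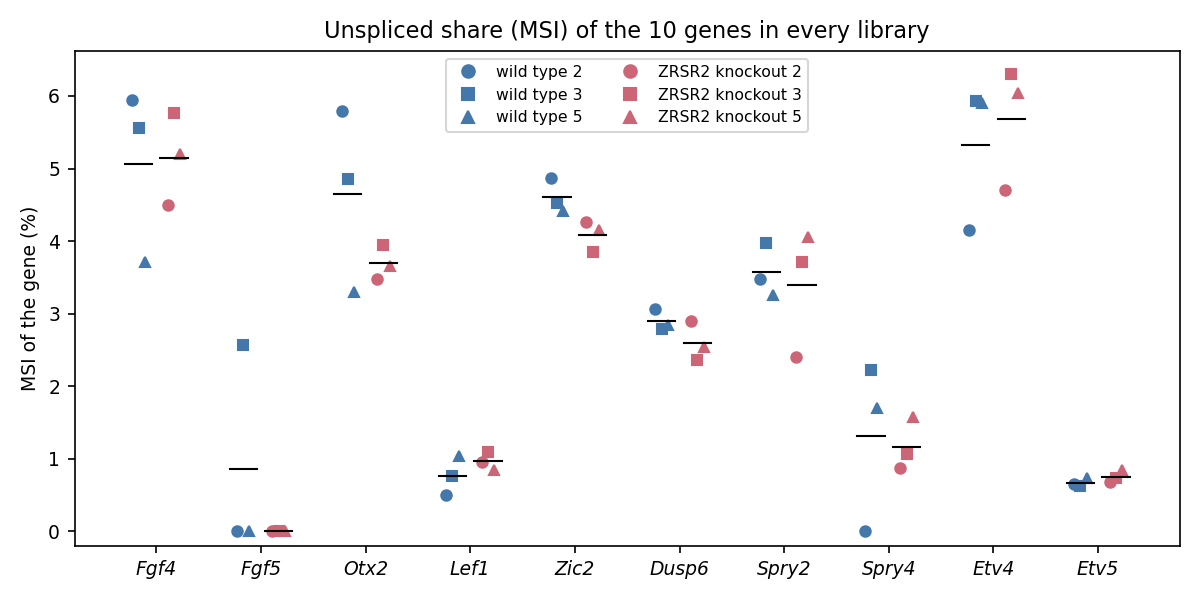
MSI of each gene in percent, pooled over its introns, in the 6 libraries, with the symbol giving the replicate number and the black line the group mean. Etv4 and Fgf4 lie between about 3.71% and 6.31%, Lef1 and Etv5 near 1%, and the groups are apart in Zic2 alone.

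Members differed far more from each other than between groups. Etv4 had the highest MSI, 4.15%, 5.93% and 5.91% in the wild-type libraries, against 4.70%, 6.31% and 6.03% in the knockout libraries (log2 odds 0.08, SE 0.17). Its mean was above that of 88.5% of all genes tested, and the lowest library of each group was replicate 2. Fgf4 followed with 5.94%, 5.56% and 3.71% in the wild-type libraries, against 4.50%, 5.76% and 5.19% in the knockout libraries (log2 odds 0.05, SE 0.23). Zic2 was at 4.87%, 4.53% and 4.41% in the wild-type libraries, against 4.27%, 3.84% and 4.15% in the knockout (log2 odds −0.16, SE 0.24), a small gap with each knockout library below each wild-type one. Otx2 was at 4.65% ± 1.26 and 3.69% ± 0.237 (SD, n = 3 each), on 55 unspliced reads in all.

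Spry2 was at 3.47%, 3.98% and 3.26% in the wild-type libraries, against 2.40%, 3.71% and 4.06% in the knockout (log2 odds −0.12, SE 0.27). Dusp6 was at 3.07%, 2.79% and 2.84% and at 2.89%, 2.37% and 2.54% (log2 odds −0.14, SE 0.25). Both overlapped between groups. The Dusp6 sum of 340 unspliced reads includes 82 at a listed intron that spans an exon, which are also counted at the introns inside it. The sums of Lef1 and Etv5 hold such introns too. Spry4 was at 0%, 2.22% and 1.69% in the wild-type libraries, against 0.865%, 1.06% and 1.57% in the knockout (log2 odds −0.55, SE 0.69). It had 33 unspliced reads in all, and 0 in wild-type replicate 2, which allows an MSI of up to 2.91% there by counting error alone. Lef1 was at 0.499%, 0.756% and 1.03% in the wild-type libraries, against 0.955%, 1.10% and 0.840% in the knockout (log2 odds 0.29, SE 0.24), and Etv5 at 0.647%, 0.616% and 0.733% and at 0.672%, 0.728% and 0.840% (log2 odds 0.16, SE 0.16). Of all genes tested, 19.6% had a lower mean MSI than Lef1 and 14.2% a lower one than Etv5.

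Intron by intron, 48 of the 55 member introns had at least 20 reads in every library and were tested. Of these 0 passed in edgeR or limma, and 0 were past an unadjusted p of 0.05 in edgeR, against 0.0273% and 4.14% of 95371 introns. Groups did not overlap in 6 of the 48 (4 higher and 2 lower in the knockout), against 7.91% of all introns tested. Among the 4 higher, 1 Lef1 intron (131204305 to 131223075) spans another (131204305 to 131204932) and shares its donor reads. The smallest p was at a Lef1 intron of 628 bases (131204305 to 131204932), with an MSI of 1.29%, 1.79% and 2.11% in the wild-type libraries, against 3.80%, 2.72% and 2.90% in the knockout libraries (log2 odds 0.85, SE 0.46, unadjusted p = 0.0663, edgeR adjusted p = 1). It rests on 4 to 26 unspliced reads in a library. The median member intron had 45 unspliced reads over all 6 libraries, so a change at a single intron would need to be large to be detected.

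Among the tested introns, the highest MSI lay in Etv4. Its second intron (chromosome 11, 101784324 to 101784516, 193 bases) was at 16.4%, 22.2% and 16.4% in the wild-type libraries, against 19.2%, 21.3% and 22.3% in the knockout (log2 odds 0.21, SE 0.30). The groups overlap, with wild-type replicate 3 again among the knockout libraries. Over all libraries 136 of its boundary reads lay at the donor and 864 at the acceptor end. The first intron (101784628 to 101785107) was one-sided as well, with 47 and 549 reads, so these values are not those of an evenly covered intron. An intron nearer the 3′ end (101771956 to 101773608) was at 10.6%, 18.3% and 13.8% in the wild-type libraries, against 12.5%, 19.7% and 15.8% in the knockout, with 206 donor and 573 acceptor reads.

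In the other members the highest MSI among introns with at least 100 reads, as wild-type and then knockout mean, was 6.76% ± 1.68 and 6.87% ± 0.248 (SD, n = 3 each) at the second Fgf4 intron (144862336 to 144862764), and 5.44% ± 0.177 and 5.13% ± 0.187 at the second Zic2 intron (122478704 to 122478889). It was 2.66% ± 0.533 and 2.82% ± 0.598 at the tenth Etv5 intron (22399380 to 22401671), and 4.61% ± 2.75 and 3.07% ± 1.77 at an Otx2 intron (48661475 to 48662443). In Lef1 it was 2.09% ± 0.859 and 3.31% ± 0.122 at an intron of 18771 bases (131204305 to 131223075; log2 odds 0.57, SE 0.49). This intron spans an exon, and its 53 donor and 27 acceptor reads also belong to the introns inside it. In Dusp6 the highest MSI was at a listed intron (99264092 to 99265991) that spans a whole exon and held 4 to 27 spliced reads in a library. Its boundary reads also belong to the introns inside it.

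The RefSeq promoter sequences run on to 50 bases after the start, and the donor end of 1 member intron lay in such a stretch. It is shown because this intron had the lowest knockout level relative to wild type in Lef1. The first listed Lef1 intron begins, after 6 exon bases and with its first 8 bases in capitals, as follows (chr3:131112815-131112840, plus strand, GRCm38.p6).
Lef1 donor: gcagggGTGAGTACgcatctgggaag
This intron had 0 boundary reads at the donor and 18 at the acceptor over all libraries, and 431 spliced reads in wild-type replicate 3, its highest count.

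Use of single exons could not be read from these counts. In 7067 cases where a listed intron spans an exon and both introns beside it, the count of the outer intron never exceeded the smaller inner count in any of 42402 library values. Outer and inner counts are therefore not separate measurements. In Etv5 an exon of 54 bases had 882 outer reads beside 885 and 882 inner ones in wild-type replicate 3, and in Lef1 an exon of 84 bases had 557 beside 585 and 591. The outer count was 95.2% to 97.6% of the smaller inner one at that Lef1 exon over the 6 libraries, with both groups in this range. At a Lef1 exon of 41 bases it was 83.7%, 81.8% and 83.3% for wild type, against 81.5%, 78.2% and 74.6% for the knockout, so each knockout library lay below each wild-type one. This was seen at 1 of the 4 member exons with at least 20 reads in the smaller inner count of every library, against 3.57% of 3021 such cases in all genes. The exon was singled out after its values were seen. Because outer and inner counts are not separate measurements, their ratio does not measure use of this exon. At the Dusp6 exon of 438 bases it was 1.08% to 5.54%, with overlapping groups.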

How the data were processed

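The 6 libraries have a table each, with 219945 introns in common. Per the file headers, the authors deposited raw read counts (A1, A2, Exon), a fraction (CovFrac, not used here) and a percent (MSI). In all 1319670 values the deposited MSI lay within 0.01 of 100 times the sum of A1 and A2 over that sum plus 2 times Exon, so A1 and A2 were read as boundary counts and Exon as spliced reads. Introns that share a listed start had the same A1 in each library on both strands, so A1 is the end of lower coordinate. Per the labels' protocols, libraries were made from polyA-selected RNA with a TruSeq kit. The build is mm10, per the submitters' processing notes. Aligner, counter and strand setting: not given in the sources used here. Starts are printed 1-based: 1 base was added to the listed start, after which 99.7% of 3014 donors in promoter windows read GT or GC.

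Introns were assigned to RefSeq genes (GRCm38.p6) by position and strand. The strand came from the promoter table or, for 5493 genes without one there (Etv4, Spry4 and Zic2 included), from their introns. Promoter windows were found for 7 of the 10 members. Gene counts (sum of Exon) were compared by edgeR 4.0.16 under R 4.3.3 (TMM, filterByExpr, quasi-likelihood F test, Benjamini-Hochberg over all genes). The unspliced ratio was tested as the interaction of read kind with genotype, with a term per sample and at least 20 reads in every library. Scripts were tested on simulated data. Alternatives used DESeq2 1.42.0, limma 3.58.1, other scalings, filters and read minimums, the most-read intron of a gene, a replicate block and each library left out. All members are named. Of the 11 other lists, those of other cell types are given as sums, with some genes named after their values were seen. Of each remaining list, genes past the threshold or else the 2 of highest level per intron are named. A gene that this rule names is not reported here. Of each member the intron of highest pooled MSI with at least 100 reads is named. Members and lists were chosen with earlier results of these data known.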

Additional observations from a re-analysis of the deposited data

How the results depend on the processing

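No member passed the threshold in level or unspliced ratio, and no member intron did, under any alternative run. In level, 111 of 120 alternative values of the 10 members kept the direction of the reported one, and in unspliced ratio 93 of 99. The log2 change of Zic2 was −0.037 without TMM factors, −0.0015 without a filter, −0.039 at the most-read intron, −0.0056 with the replicate block and −0.057 to 0.10 without single libraries. That of Spry4 was −0.072 to 0.53 without single libraries. The log2 odds of Spry4 was −0.55 in the main fit and 0.098 with the smaller boundary count doubled. Without single libraries the log2 odds was −0.17 to 0.17 for Fgf4, −0.073 to 0.20 for Etv4 and −0.28 to 0.12 for Spry2. The cause was not tested. Calls over all genes moved more. In level they numbered 3, against 222 by DESeq2, 7 without a filter, 12 at the most-read intron, 8 with the replicate block and 0 to 35 without single libraries (35 when wild-type replicate 3 was left out, 22 for knockout replicate 5, 1 for wild-type replicate 2 or 5, 0 for knockout replicate 3). In gene unspliced ratio they numbered 6, against 11 with at least 10 reads, 0 by limma, 0 with the smaller boundary count doubled and 1 to 18 without single libraries (18 when wild-type replicate 3 was left out, 1 for wild-type replicate 5, 2 for knockout replicate 2). In introns they numbered 26, against 0 by limma, 1 with the smaller boundary count doubled and 7 to 25 without single libraries (7 when wild-type replicate 5 was left out, 15 for wild-type replicate 2, 16 for knockout replicate 3). For the replicate block, deviations from the group means correlated by 0.065, 0.067 and 0.017 over genes between libraries of the same number, and not every library correlated best with its own number. The summed fibroblast or feeder markers did have the same order of numbers in both groups. Wild-type replicate 2, with 19801687 spliced reads, held the fewest reads of the low members, 2 of Fgf5, 65 of Otx2 and 50 of Spry4. Counts were also small in other libraries, with 15, 66 and 157 in knockout replicate 5. The effect of depth on these members was not tested.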
